A study of Mus musculus with 9 samples.

Results

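The region between Swap70 and Rnf141 on mouse chromosome 7 was examined through its 5 neighbouring genes Swap70, Sbf2, Adm, Ampd3 and Rnf141, taken by symbol from 26611 named genes in each histone count file. They were picked because Sbf2 and Adm carried less H3K27me3, and Adm more H3K4me3, in the deleted library than the floxed one, so these 3 values are given as a description. The cells came from mouse leukemias of the MLL-ENL type, in which part of the gene MLL (Kmt2a) is joined to ENL (Mllt1). Floxed cells (label fl) were compared with deleted cells (label ΔERT2) and with deleted cells that also carry Flag-tagged Hhex (label ΔERT2 + Hhex-F), called rescue here. All groups carry the fusion. Which gene is floxed is not in the labels; the study concerns Hhex, a homeodomain transcription factor. The labels also leave ERT2 unexplained and do not say how many animals, clones or cultures stand behind a group. Each mark has 1 library per group, so no test between groups was possible and no p-value is given.

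H3K27me3 is placed by Polycomb repressive complex 2 and marks silenced chromatin, often in long stretches that take in several genes. H3K4me3 marks active promoters, and a promoter that carries both marks is called bivalent. Sbf2 encodes MTMR13, a catalytically inactive member of the myotubularin family that regulates phosphoinositide phosphatases and acts as an exchange factor for Rab GTPases. Adm encodes adrenomedullin, a vasodilator peptide hormone induced by hypoxia. Swap70 encodes an actin-binding regulator of Rac signalling in B cells and mast cells. Ampd3 encodes an AMP deaminase, and Rnf141 a RING finger protein.

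The H3K27me3 libraries held 2444487 (floxed), 2535576 (deleted) and 4203349 (rescue) counts in named genes, and the H3K4me3 libraries 645240, 420701 and 395133. A level is given as CPM, the share of a library's named-gene counts scaled to 1000000, and H3K27me3 also as CPM per kb so that genes can be compared. Genes averaging 20 or more counts across the 3 libraries of a mark count as measured. Such a gene is termed lower or higher where 2 libraries differ by 1.5-fold or more in CPM and the 95% interval of that ratio leaves out 1. The intervals cover counting error only. Counts given as 3 numbers are raw, in the order floxed, deleted and rescue, and are not scaled to library size. Of 10 myeloid markers, 8 were measured for H3K4me3, with summed counts of 1011, 566 and 579 in floxed, deleted and rescue, and Ptprc, a minus-strand gene, was at 0 in all 3. Of 18 markers of B, T, erythroid, endothelial and stromal cells, 1 was measured, Ebf1, with sums of 97, 101 and 70 over the list. Only 6 of these 18 genes are listed on the plus strand, 7 are on the minus strand and 5 have no strand in the promoter table. Since minus-strand windows mostly hold few H3K4me3 counts, as shown further on, the low counts of this list and of Ptprc are not read as the absence of those cells or of that gene.

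Sbf2 and Adm lie head to head. Sbf2 (Entrez 319934) spans 110308011 to 110614934 on the minus strand (mm10), and Adm (Entrez 11535) spans 110627657 to 110629820 on the plus strand, 12.7 kb away. Swap70 (Entrez 20947; 110221703 to 110283506, plus strand) ends 24.5 kb before the 3′ end of Sbf2. On the other side, the non-coding RNA gene Gm21123 lies 60.3 kb beyond Adm, and Ampd3 (Entrez 11717; 110767790 to 110812409, plus strand) a further 68.1 kb away. Rnf141 (Entrez 67150; 110799469 to 110844452, minus strand) overlaps Ampd3 at its 3′ end in the RefSeq table. The counted lengths of Ampd3 and Rnf141, 39792 and 27847 bp, are shorter than these spans.

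The 250 bases before the starts of Adm and Sbf2, the divergent pair with low H3K27me3 in deleted cells, and of Swap70, the next gene beyond Sbf2, are shown from RefSeq (GRCm38.p6, the assembly of mm10), 5′ to 3′, with CpG dinucleotides in capitals.
Adm: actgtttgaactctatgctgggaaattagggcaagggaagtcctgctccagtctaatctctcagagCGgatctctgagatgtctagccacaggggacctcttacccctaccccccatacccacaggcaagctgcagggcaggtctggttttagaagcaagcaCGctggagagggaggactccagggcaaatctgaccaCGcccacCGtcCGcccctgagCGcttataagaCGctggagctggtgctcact
Sbf2: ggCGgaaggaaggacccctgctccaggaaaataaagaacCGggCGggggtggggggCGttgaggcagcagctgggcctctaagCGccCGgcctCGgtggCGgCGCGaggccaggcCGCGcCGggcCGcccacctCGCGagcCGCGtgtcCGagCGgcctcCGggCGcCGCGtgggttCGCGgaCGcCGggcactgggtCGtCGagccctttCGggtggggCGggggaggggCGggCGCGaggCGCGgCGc
Swap70: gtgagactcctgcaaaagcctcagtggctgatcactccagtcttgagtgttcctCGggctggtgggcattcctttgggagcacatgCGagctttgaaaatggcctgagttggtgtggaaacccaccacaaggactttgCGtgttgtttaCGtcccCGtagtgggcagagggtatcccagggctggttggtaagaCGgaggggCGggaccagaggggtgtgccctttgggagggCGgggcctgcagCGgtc
These are chr7:110627407-110627656 (plus strand), chr7:110614921-110615170 (minus strand) and chr7:110221453-110221702 (plus strand). The promoter table places the start of Sbf2 slightly inside the span given above, so the last bases of its window lie within that span. The Sbf2 promoter held 38 CpG, more than 98.1% of the 32851 promoters in the table, and its observed over expected CpG ratio was 1.04. The Adm promoter held 7 CpG with a ratio of 0.348, near the median of 6 and 0.374 over all promoters, and Swap70 held 9 with a ratio of 0.429. The gene of the pair with the lower H3K27me3 density thus has the CpG-rich promoter. The remaining promoters ranged widely, with 13 CpG for Rnf141 and 17, 2 and 2 for the 3 listed starts of Ampd3.

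On both strands, the hypoxia response element core ACGTG, the homeodomain core ATTAA, the TATA box TATAAA and the E-box CACGTG (which contains ACGTG) were not found in these windows of Adm, Sbf2 and Swap70. Over all promoters 16.6%, 24.9%, 12.4% and 6.02% hold them. The GC box GGGCGG occurred 4 times at Sbf2, 2 times at Swap70 and 1 time at Adm, and in 32.7% of all promoters. The second start of Ampd3 held ACGTG 2 times, within 1 palindromic CACGTG read on both strands, and 1 ATTAA. A match or its absence is a description of these letters only.

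Sbf2 was the gene with the largest drop in H3K27me3 in the deleted library. Floxed cells gave 1752 counts over its span, deleted cells 120 and rescue cells 3794, which is 716.7 CPM, 47.3 CPM and 902.6 CPM. The deleted library stood apart below both others, and the difference of -669 CPM was the largest drop among the 10604 measured genes. The deleted-to-floxed ratio was 0.0660 (0.0544 to 0.0795), or -3.91 in log2, rank 3 from the lowest of all measured genes. Per length, Sbf2 held 2.34 CPM per kb in floxed, 0.154 CPM per kb in deleted and 2.94 CPM per kb in rescue. In the floxed library this density lay above 82.3% of named genes, and in the deleted library above 43.0%.

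Adm was also lower in the deleted library, but kept a dense mark. It held 193, 65 and 342 counts over 2151 bp in floxed, deleted and rescue, which is 36.7, 11.9 and 37.8 CPM per kb. Again the deleted library was the low one, and floxed and rescue lay close together. The deleted-to-floxed ratio was 0.325 (0.241 to 0.432), or -1.61 in log2, rank 28 from the lowest. The remaining density in the deleted library still lay above 97.5% of named genes, against 99.6% in floxed. Thus the 2 neighbours differed in what was left. In the deleted library Sbf2, at 0.154 CPM per kb, lay between the sparsely marked genes Swap70, at 0.0511, and Ampd3, at 0.228. Adm stayed far above them. Counts over whole spans cannot show where inside the 306908 bp of Sbf2 the reads lay.

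Genes dense in the floxed library tended to be lower in the deleted library, and Adm is among them. Among the 1061 measured genes in the densest 10% of the floxed library, at 9.14 CPM per kb or more, the median log2 ratio was -0.43, with quartiles at -0.59 and -0.27. Adm had the eighth lowest log2 ratio in that class. The class was set by the floxed density, and the floxed library is also the denominator of the ratio. Part of the low median can therefore come from how the class was set. The part of this class-wide shift in the Adm value was not tested.

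**Figure D1:**
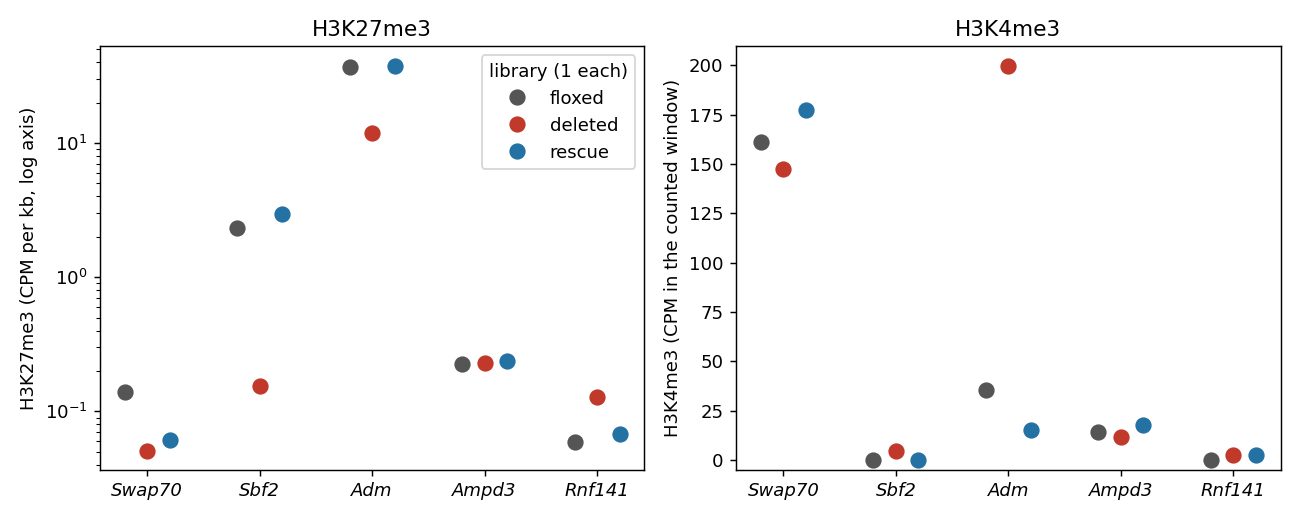
Levels of the 5 genes in chromosome order, 1 point per library; left, H3K27me3 in CPM per kb on a log axis; right, H3K4me3 in CPM in the counted window. The deleted library is low in H3K27me3 at Sbf2 and Adm and high in H3K4me3 at Adm, at 199.7 CPM.

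Among the other members, Ampd3 did not share the drop, and Rnf141 and Swap70 had too few counts to be measured. Ampd3 held 22, 23 and 40 H3K27me3 counts, a deleted-to-floxed ratio of 1.01 (0.537 to 1.90). Its 3 densities, 0.226, 0.228 and 0.239 CPM per kb, were nearly equal. Rnf141 held 4, 9 and 8 counts, with a ratio of 2.17 (0.605 to 9.64). Swap70 held 21, 8 and 16 counts, a mean of 15. Its ratio of 0.367 (0.141 to 0.863) lay on the same side as Sbf2 and would be lower by the size rule were it not for the filter on low counts, at a density of 0.139 CPM per kb in floxed, 0.0511 in deleted and 0.0616 in rescue. Of the 3 members measured for H3K27me3, 2 were lower and 0 higher, where 5.39% of the 10604 measured genes were lower and 4.72% higher; the members were chosen on this comparison, so nothing is read from the share.

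The first measured gene beyond Adm did not share the drop. Gm21123, 60.3 kb from Adm, held 80, 96 and 146 H3K27me3 counts, or 3.42 CPM per kb in floxed and 3.96 CPM per kb in deleted. That is a higher floxed density than that of Sbf2, and the ratio was 1.16 (0.851 to 1.58). Mrvi1, which encodes a substrate of cGMP kinase and lies past Rnf141 and Lyve1, held 110, 121 and 141 counts with a ratio of 1.06 (0.812 to 1.39). Galnt18, a glycosyltransferase gene farther out, of nearly the same length as Sbf2 (308317 bp) and nearly the same floxed density (2.39 CPM per kb), held 1799, 2036 and 3047 counts. Its ratio was 1.09 (1.02 to 1.16), so a long gene with a comparable level in the same region did not go with Sbf2. Of the nearest genes past Rnf141, Lyve1 held 6, 11 and 7 counts, Ctr9 7, 13 and 7, and Gm16336 0 in all 3 libraries.

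On the Swap70 side the nearest measured gene was farther away. Scube2, which encodes a secreted protein of Hedgehog signalling, lies 356023 bp before Swap70. Its counts were 923, 868 and 1353 and its ratio 0.907 (0.825 to 0.996). Its neighbour Nrip3 held 326, 313 and 580 counts, a ratio of 0.926 (0.790 to 1.08). Both carry more H3K27me3 per kb than Sbf2 in the floxed library, at 5.64 and 5.68 CPM per kb, and neither met the size rule. Between Scube2 and Sbf2 lie genes with little of the mark. Wee1 held 4, 6 and 8 counts, Zfp143 9, 4 and 14, Ipo7 17, 4 and 25, and Snora23 0 in all 3.

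Of the 27 other named genes between 1 Mb before Swap70 and 1 Mb past Rnf141, 10 were measured for H3K27me3. In deleted against floxed 0 of them were lower and 0 higher, where 5.39% of all measured genes were lower and 4.72% higher. With 10 genes, counts of 0 are near those shares, so the counts alone do not bound the region. The log2 ratios of these 10 genes ran from -0.38 to 0.82 with a median of 0.09. The median was 0.02 over all measured genes, and the values at Sbf2 and Adm were -3.91 and -1.61. Among measured genes the low region held Sbf2 and Adm, a stretch of 322 kb. Up to 407 kb separate Swap70, whose counts were too few to decide, from Gm21123, and the sequence between genes was not counted. Without the filter on low counts, 3 members were lower in place of 2, Swap70 being added, and so were 2 of the 27 genes, both on the Swap70 side. These 2 are Ipo7, with a ratio of 0.227 (0.0555 to 0.696), and Tmem41b, where 11, 3 and 8 counts gave 0.263 (0.0471 to 0.995).

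The sum over the sparsely marked genes on each side was added after their values were seen. The 8 genes between Scube2 and Sbf2, Swap70 included, held 89, 42 and 95 H3K27me3 counts over 243 kb, which is 0.150, 0.0683 and 0.0932 CPM per kb. Their ratio was 0.455 (0.307 to 0.664) for deleted over floxed, 1.36 (0.939 to 2.01) for rescue against deleted and 0.621 (0.460 to 0.838) for rescue against floxed. The 3 genes between Gm21123 and Mrvi1 held 32, 43 and 55 counts, with a deleted-to-floxed ratio of 1.30 (0.801 to 2.12). Against floxed, the deleted library was thus low over the Swap70 side and not over the Rnf141 side. On the Swap70 side the rescue library was below floxed too, unlike at Sbf2 and Adm. The floxed level there was 0.150 CPM per kb beside 2.34 at Sbf2, and none of the 8 genes was measured. How often sums over genes this sparse differ as much was not tested. The sum therefore does not place the edge of the region. The 24.5 kb between Swap70 and Sbf2 and the 60.3 kb between Adm and Gm21123 were not counted.

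**Figure D2:**
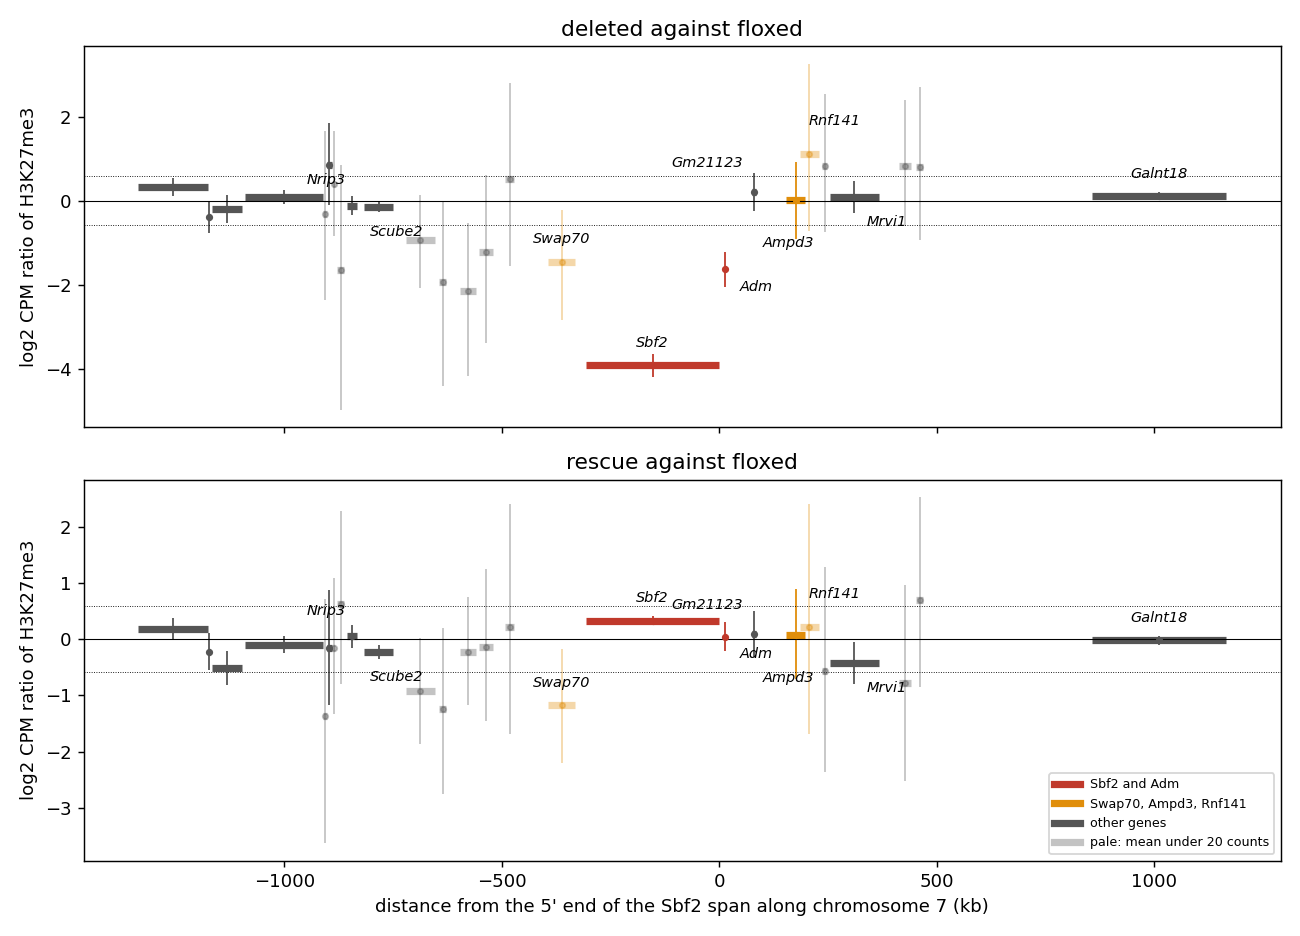
H3K27me3 ratio (log2 of the CPM ratio) of genes averaging 5 or more counts, by position relative to the 5′ end of Sbf2 in kb; bars span the gene, vertical lines are 95% counting intervals, dotted lines the 1.5-fold limits. In deleted against floxed (top) Sbf2 and Adm lie below all measured neighbours; in rescue against floxed (bottom) they lie within the 1.5-fold limits.

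In the rescue library H3K27me3 at Sbf2 and Adm was back at or above the floxed level. Against deleted, the ratio was 19.1 (15.9 to 23.1) at Sbf2 and 3.17 (2.43 to 4.20) at Adm. These 2 of the 3 measured members were higher and 0 lower, where 7.07% of all measured genes were higher and 11.3% lower, and the comparison shares the deleted library with the one that chose them. Ampd3 had a ratio of 1.05 (0.613 to 1.84) and Gm21123 was not called. Among the 10 measured genes within 1 Mb, 0 were higher and 1 was lower, BC051019, with 15, 28 and 23 counts.

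Rescue against floxed does not involve the deleted library, but it shares the floxed library with the comparison that chose Sbf2 and Adm. Of the 3 measured members 0 were lower and 0 higher, where 8.05% of all measured genes were lower and 5.72% higher (13.8% either way). Sbf2 had a ratio of 1.26 (1.19 to 1.33), above 1 beyond counting error but under the 1.5-fold limit, and Adm 1.03 (0.861 to 1.24). The direction at Sbf2 depended on the scaling: its log2 ratio was 0.33 by library totals and -0.25 when libraries were scaled to housekeeping genes, and that of Adm 0.04 and -0.54. That scaling rests on 99, 109 and 255 pooled H3K27me3 counts and moved the median over all measured genes from -0.05 to -0.63. Swap70, not measured, had a ratio of 0.443 (0.216 to 0.891).

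**Figure D3:**
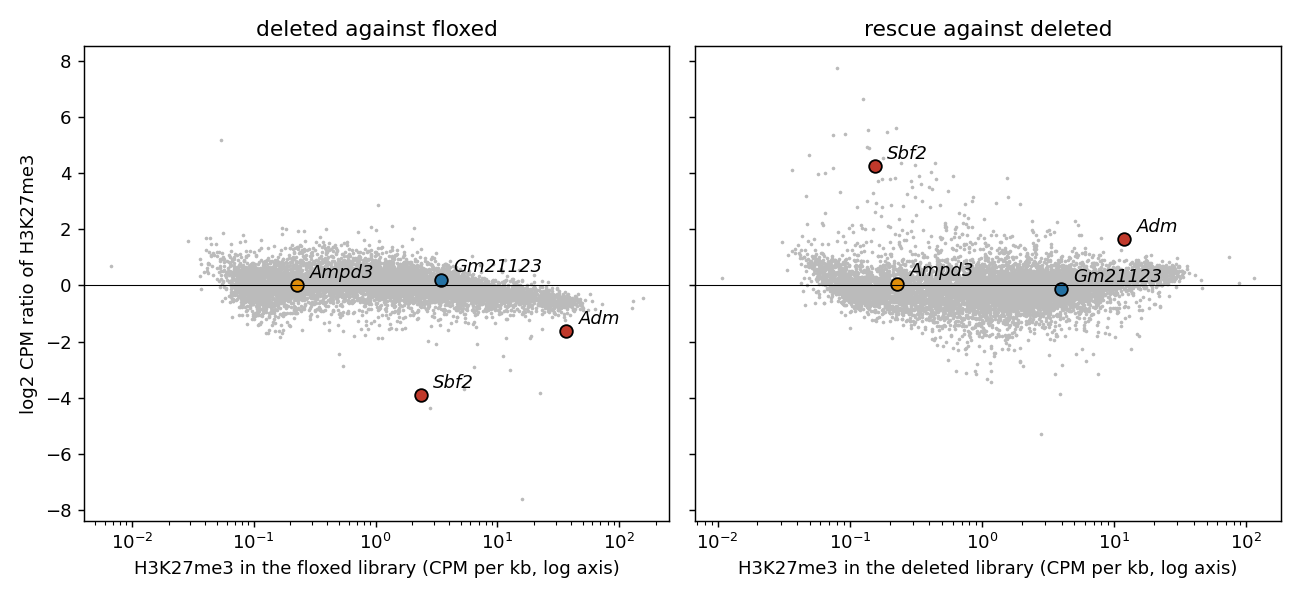
H3K27me3 log2 CPM ratio against H3K27me3 density in CPM per kb (log axis) for measured genes with counts in all 3 libraries (grey), with 4 genes of the region marked; left, deleted against floxed, right, rescue against deleted. Ratios are plotted with no count added. Sbf2 and Adm lie at the lower edge on the left, at ratios of 0.0660 and 0.325 before the log2, and above the bulk on the right. Gm21123 and Ampd3 lie near 0.

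For H3K4me3 the files count a window of 301 bp per gene, its position not given in the sources used here, and the values differ by strand. The median count was 32 in floxed, 20 in deleted and 17 in rescue over 9235 plus-strand genes, and 1, 0 and 0 over 9223 minus-strand genes. Of the plus-strand genes 51.8% were measured, and of the minus-strand genes 3.91%. The same was seen where a plus-strand and a minus-strand gene start within 300 bp of each other: over 457 such pairs the floxed medians were 79 and 1, and the plus-strand gene had the higher count in 426. Whether the window lies at the lower-coordinate end of every gene was not tested. Some minus-strand genes did hold many counts, such as Hoxa9 with 220, 120 and 105. Because most minus-strand windows hold few counts, those of Sbf2 and Rnf141, both on the minus strand, are not read as promoter levels here.

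**Figure D4:**
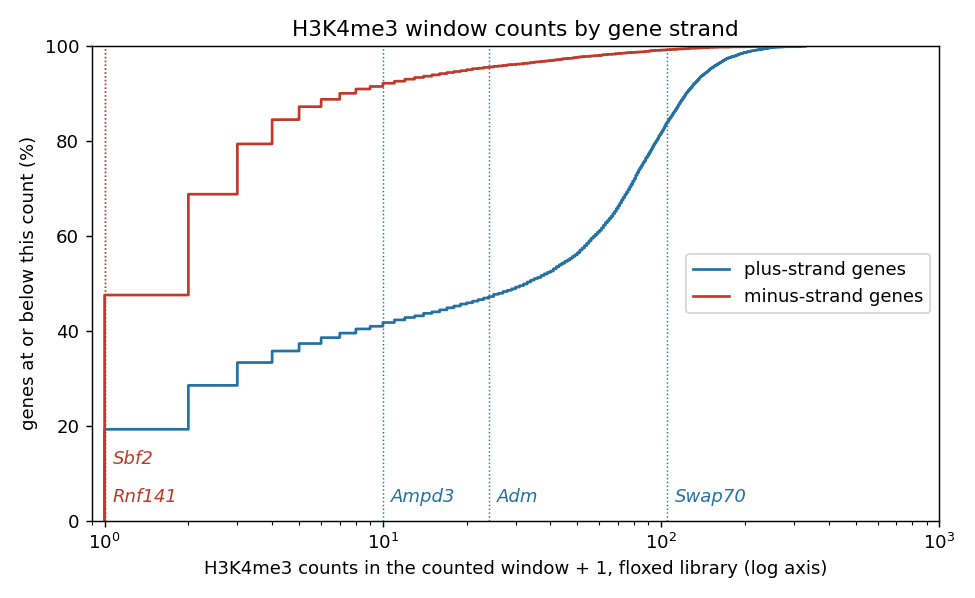
Cumulative share of genes by H3K4me3 window count plus 1 in the floxed library (log axis), for 9235 plus-strand and 9223 minus-strand genes; dotted lines mark the 5 genes, with Sbf2 and Rnf141 both at a count of 0. The minus-strand curve lies far to the left, with a median count of 1 against 32.

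Adm, picked for this rise, had the largest H3K4me3 increase in the deleted library among measured genes. Only 3.91% of minus-strand genes were measured, so most of them could not be ranked. Floxed cells gave 23 counts in its window, deleted cells 84 and rescue cells 6, which is 35.7, 199.7 and 15.2 CPM. The deleted library was high and both others were low. The deleted-to-floxed ratio was 5.60 (3.50 to 9.31), or 2.42 in log2, and both this ratio and the rise of 164 CPM were the highest among 6681 measured genes. Among plus-strand genes the level of Adm lay above 46.9% in floxed, above 90.9% in deleted and above 41.3% in rescue. In the deleted library Adm therefore carried a high H3K4me3 level together with a dense H3K27me3 level. Single-gene counts from bulk chromatin cannot tell both marks on the same copies from a mixture of cells.

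Swap70 had a high H3K4me3 level in every library and no difference that met the size rule. It held 104, 62 and 70 counts, or 161.2, 147.4 and 177.2 CPM, with a deleted-to-floxed ratio of 0.914 (0.657 to 1.26). Its level lay above 83.7% of plus-strand genes in floxed. Ampd3 held 9, 5 and 7 counts and was not measured, and which of its 3 listed starts was counted is not given. Rnf141 held 0, 1 and 1 counts and Sbf2 0, 2 and 0; a count of 0 allows up to 4.65 CPM in floxed and 7.59 CPM in rescue. Of the 2 members measured, 1 was higher and 0 lower in deleted against floxed, beside 3.02% of measured genes higher and 4.39% lower; the rule used this contrast.

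Against the deleted library, H3K4me3 at Adm in rescue had a ratio of 0.0761 (0.0271 to 0.173), or -3.55 in log2. It was the 1 lower member of 2 measured and 0 were higher, where 5.97% of measured genes were lower and 4.49% higher. This comparison shares the deleted library with the one that chose Adm, and the next one shares the floxed library. Against floxed the ratio was 0.426 (0.142 to 1.08), which was not called, and of 2 measured members 0 were lower and 0 higher, where 3.92% of measured genes were lower and 1.92% higher (5.84% either way). The rescue value rests on 6 counts. When libraries were scaled to housekeeping genes, Adm was lower in rescue than in floxed. Swap70 had ratios of 1.20 (0.842 to 1.72) against deleted and 1.10 (0.800 to 1.5) against floxed.

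Within 1 Mb, 6 of the 27 flanking genes were measured for H3K4me3, and 0 were lower and 0 higher in each of the 3 comparisons. Over all measured genes, 1.92% to 5.97% were called per direction and comparison. With 6 genes, counts of 0 are near those shares and nothing is read from them. Ipo7, which encodes a nuclear import receptor, held 142, 104 and 69 counts, Wee1, a mitotic inhibitor kinase gene, 68, 49 and 53, and Ctr9, a PAF1 complex gene, 111, 68 and 64. These promoters, on both sides of the region, were not called. Of 2317 genes measured in both marks, 186 were lower in H3K27me3 and 129 higher in H3K4me3 in deleted against floxed. Both calls were met by 12 (0.518%), among them Adm, which was picked for both. Whether the 2 calls fall together more often than their separate shares would give was not tested.

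Genes most like Sbf2 in H3K27me3 were found by distance in the log2 ratios of deleted against floxed and rescue against deleted, over 3 libraries and 5783 genes averaging 100 or more counts. The nearest were Tmem198 on chromosome 1, at a distance of 0.47 with 334, 24 and 568 counts, and Naaa on chromosome 5, at 0.63 with 141, 7 and 358. Ppef2, next to Naaa, followed at 1.42 with 815, 105 and 1567 counts, and Adam28 at 1.5 with 774, 108 and 1607. Limd1, at 1.89, differed in the rescue library, where its ratio against floxed was 7.81 (5.89 to 10.6) and that of Sbf2 1.26.

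Adm was compared in the same way over the 4 log2 ratios of both marks in 2316 genes. Its nearest gene was Slc4a3, an anion exchanger gene at 75546044 to 75559431 on chromosome 1, close to Tmem198 at 75479532 to 75485693. Slc4a3 lay at a distance of 1.81, with 234, 154 and 417 counts in H3K27me3 and 28, 51 and 6 in H3K4me3. Pmp22, which encodes a myelin protein, followed at 2.67 with 267, 91 and 1150 H3K27me3 counts and 125, 105 and 18 H3K4me3 counts. The next were Slc35f3 at 2.71, Areg at 2.77 and Fgr at 2.89. Their H3K4me3 counts were 33, 33 and 6 at Slc35f3, 32, 41 and 7 at Areg, and 44, 46 and 14 at Fgr.

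Relatives of the members elsewhere in the genome were examined from lists that include the member itself. Of the 13 genes of adrenomedullin and related peptides and their receptors, 11 were measured for H3K27me3. In deleted against floxed 1 was lower, Adm, and 0 higher; the list's median was 0.08 in log2, beside 0.02 over all measured genes. The receptor gene Calcr held 208, 262 and 453 counts, and Ramp2, a receptor-modifying protein gene, 112, 89 and 174. In rescue against deleted Adm and Adm2 were higher and Ramp1 and Ramp3 lower. Adm2, the paralogue that encodes intermedin, held 36, 22 and 93 counts, a ratio of 2.55 (1.59 to 4.26). For H3K4me3, 5 were measured; Adm was higher and Crcp, with 104, 44 and 47 counts, lower.

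Adm is a target of hypoxia-inducible factors, and 7 of 18 such targets were measured for H3K27me3 and 8 for H3K4me3. Adm was the 1 lower gene in H3K27me3 and the 1 higher gene in H3K4me3 in deleted against floxed, with none in the opposite direction. The median H3K4me3 log2 ratio of the list was 0.21, beside -0.03 over all measured genes. This list includes Adm, at 2.42, which was picked on this comparison, so nothing is read from these counts or this median. Ldha, a lactate dehydrogenase gene, held 102, 90 and 69 H3K4me3 counts, a ratio of 1.35 (1.01 to 1.81) that did not meet the size rule. In rescue against deleted, Adm and P4ha2, a prolyl hydroxylase gene, were lower in H3K4me3 and higher in H3K27me3. P4ha2 held 106, 87 and 26 H3K4me3 counts and 548, 453 and 1282 H3K27me3 counts. Egln3, an oxygen sensor gene, was higher in H3K27me3 as well, with 7, 11 and 255 counts. Ndrg1, a stress-response gene, was lower, with 22, 29 and 20 counts and a rescue-to-deleted ratio of 0.416 (0.223 to 0.761).

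Of 14 genes of the myotubularin family, 5 were measured for H3K27me3. Sbf2, picked on this comparison, was the 1 lower gene in deleted against floxed, with 0 higher. Over all measured genes 5.39% were lower and 4.72% higher, and in H3K4me3 4.39% and 3.02%. Nothing is read from the counts of this list or of those that follow. The median log2 ratio of this list was 0.04. Mtmr7 held 303, 324 and 962 counts and, like Sbf2, was higher in rescue against deleted, with a ratio of 1.79 (1.58 to 2.04). For H3K4me3, 7 were measured and 1 was lower, Mtmr11, with 61, 24 and 19 counts. Of 16 genes of AMP and adenosine metabolism, 9 were measured for H3K27me3 and 7 for H3K4me3, and 0 were called in deleted against floxed in either mark. Ampd1, the muscle paralogue of Ampd3, held 240, 213 and 461 H3K27me3 counts. Of 12 genes of the SWAP-70 family and Rac regulators, 7 were measured for H3K27me3; 1 was higher, Prex1, with 535, 1334 and 246 counts, and 0 lower. The Swap70 paralogue Def6 held 48, 38 and 35 H3K4me3 counts, a ratio of 1.21 (0.772 to 1.90).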

How the data were processed

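Chromatin immunoprecipitation with sequencing of H3K27me3 and H3K4me3 in MLL-ENL cells of 3 genotypes gave 6 histone libraries, 1 per group. The deposited values are whole-number read counts per gene, not normalised; per the submitters' processing notes featureCounts, MACS2 and mm10 were used, with no versions, and the aligner was not given in the sources used here. H3K27me3 was counted over gene spans and H3K4me3 in 301 bp windows, per the file headers and the deposited length columns. The 3 Flag files hold summits with a deposited −log10 score per summit, as MACS2 writes them; scores are the authors'.

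Rows without a symbol (568 of 27179, holding 0.608% to 0.739% of a library's counts) were left out. CPM were computed over named-gene totals. Ratios carry 95% exact conditional binomial (Clopper-Pearson) intervals, and log2 ratios add 1 count, scaled to library size, to each side. PCR reads are not independent molecules, so intervals and the 3-count limit of a 0 cover counting error only. With 1 library per group the size rule describes libraries, not conditions. Positions came from RefSeq GRCm38.p6, matched on Entrez identifier for 25275 of 26611 genes; strand and promoters came from the RefSeq promoter table of that assembly, which holds all 5 members.

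The members, gene lists and rules were chosen with earlier results of these data known. Named genes are the members, the 4 nearest flanking genes on each side, every called flanking gene, the 5 genes nearest to Sbf2 and to Adm by log2 ratios, and 2 to 4 measured genes of each list with the most counts, or the called ones; Gm21123, Galnt18, Scube2, Nrip3, Tmem41b, Adm2, Def6, Ampd1, Ldha, Egln3 and Ndrg1 were added after their values were seen. Alternatives were edgeR 4.0.16 TMM factors, DESeq2 1.42.0 size factors, scaling to 30 housekeeping genes, a prior of 5, no filter or an average of 100 or more counts, a 2-fold rule and a 2 Mb window. Python 3.11.15 and R 4.3.3 were used.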

Additional observations from a re-analysis of the deposited data

How the results depend on the processing

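The calls of Sbf2 and Adm in H3K27me3, lower in deleted than in floxed and higher in rescue than in deleted, held under all 6 alternatives tried on the counts; with no filter Swap70 was lower too in deleted against floxed, 3 members in place of 2. For H3K4me3, the member counts (Adm) of 1 in deleted against floxed and in rescue against deleted became 0 with a minimum average of 100 counts, because Adm has fewer. In rescue against floxed the count of called members went from 0 to 1 without a filter for H3K27me3 (Swap70) and from 0 to 1 with housekeeping scaling for H3K4me3 (Adm). Of 120 member log2 ratios under other scalings or a prior of 5, 116 stayed inside the counting interval of the main value. For Sbf2 and Rnf141 in H3K4me3, with 0 to 2 counts, that interval is so wide that staying inside says little. The 4 ratios that left it came from housekeeping scaling. They were Sbf2 at 3.75 and Adm at 1.16 in rescue against deleted, and Sbf2 at -0.25 and Adm at -0.54 in rescue against floxed. Among genes within 1 Mb, 2 were lower in deleted against floxed and 2 higher in rescue against deleted without a filter, in place of 0 and 0.

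Counts over all measured genes moved more. Lower in H3K27me3 in deleted against floxed were 572 genes, 324 at an average of 100 or more and 145 with a 2-fold rule. Higher in rescue against deleted were 750, with 236 under housekeeping scaling, 1149 with no filter, 430 at 100 counts and 323 at 2-fold; called in rescue against floxed were 1461, with 5788, 2202, 544 and 608. For H3K4me3, higher in deleted against floxed were 202, with 507 with no filter, 2 at 100 counts and 42 at 2-fold. Lower in rescue against deleted were 399, with 798 under housekeeping scaling, 629 with no filter, 30 at 100 counts and 194 at 2-fold; called in rescue against floxed were 390, with 615, 698, 13 and 118. No paired analysis was possible because each group has 1 library and the labels carry no replicate numbers. Depth limits Rnf141, Swap70 and Ampd3, with 4 to 40 H3K27me3 counts.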

Other observations

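Genes called lower in H3K27me3 in the deleted library in part lay beside each other, as Sbf2 and Adm do. Of 554 lower genes with a position, 131 (23.6%) had a lower gene as the nearest measured gene on at least 1 side, and 10.1% of all 10369 measured genes with a position had such a neighbour. Overlapping gene spans can share reads, and their part in these shares was not tested.

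The Flag lists, with 475, 220 and 429 summits in floxed, deleted and rescue, held 0 summits within 1 Mb of the 5 genes. The nearest in floxed (chromosome 7, position 111914863, score 11.3) and in rescue (position 111914922, score 10.7) lay 1.29 Mb beyond Adm; the floxed cells are not labelled as carrying the tag. In deleted the nearest lay 6.82 Mb away.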
